A study of Caenorhabditis elegans with 2 samples.

Results

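Of 2305 reproducible binding sites of the transcription factor JUN-1 in first-stage (L1) larvae of Caenorhabditis elegans, 389 lay on an autosome at a place where the promoters of 2 or more protein-coding genes overlap. They were chosen by position alone. A peak qualified when its summit, the base of highest enrichment, fell between 1000 bp upstream and 200 bp downstream of the annotated start of at least 2 coding genes. Of the 1855 autosomal peaks, another 677 had their summit in the window of 1 gene and 789 in the window of none. The 450 peaks of the X chromosome were set aside, and 19 of them (4.22%) met the same condition.

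The data are chromatin immunoprecipitation with sequencing (ChIP-seq) of whole worms in 2 biological replicates, the only group. The strain is OP234, with the genotype unc-119(ed3) III and the transgene wgIs234, which carries jun-1 fused to eGFP, and the cultures were of mixed sex. All samples share the transgene and the unc-119 mutation, so the peaks describe the tagged protein, summed over the cell types of the larva. No second condition exists, and no test between conditions was possible. Values are therefore compared between sets of peaks and between the replicates, with 95% Wilson intervals on shares. Peaks are not independent samples, and those intervals cover counting error only.

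JUN-1 is the worm counterpart of Jun, a basic leucine zipper (bZIP) protein that pairs with Fos and related partners to form AP-1, a dimer that binds the element TGACTCA. Worm genes are closely packed. Genes on opposite strands often start back to back from a common stretch of intergenic DNA, and many genes on the same strand form operons, in which the promoter before the first gene serves all of them and the later messages are released by trans-splicing to a spliced leader. An annotated start in the worm is often a trans-splice site and not the base where transcription begins. A summit in a shared window therefore records a position, and does not show which gene, if any, the factor regulates.

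The peaks fell into 4 arrangements. In 339 (87.1%, interval 83.5% to 90.1%) exactly 2 genes diverged from the summit region, with the minus-strand start to the left of the plus-strand start. In 23 (5.91%, 3.97% to 8.72%) both genes lay on the same strand, and in 2 (0.514%, 0.141% to 1.85%) the genes lay on opposite strands with overlapping 5′ ends. The remaining 25 (6.43%, 4.39% to 9.31%) were in the windows of 3 or more genes, 2 of them with 4, and all 25 of these groups had genes on both strands.

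Sequences at the summits show what these shared stretches look like. All are the plus strand of WBcel235 (ce11), 5′ to 3′, from the RefSeq copy of that assembly, and reach 60 bp to either side of the summit or as far as the nearest annotated UTR. Capitals mark matches to the searched motifs on either strand. They are the strongest divergent peak, at chrIII:10759193-10759306, the strongest operon-like one, at chrV:10897321-10897441, and the strongest group of 3 genes, at chrIII:13463045-13463162.
tasp-1/K01G5.10: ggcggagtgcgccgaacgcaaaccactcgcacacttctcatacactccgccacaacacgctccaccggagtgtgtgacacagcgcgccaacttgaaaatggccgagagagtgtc
sec-61.G/F32D8.13: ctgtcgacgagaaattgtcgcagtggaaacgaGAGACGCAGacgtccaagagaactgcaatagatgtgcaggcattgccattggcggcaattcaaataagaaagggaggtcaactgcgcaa
ant-1.1/T27E9.2/abcf-2: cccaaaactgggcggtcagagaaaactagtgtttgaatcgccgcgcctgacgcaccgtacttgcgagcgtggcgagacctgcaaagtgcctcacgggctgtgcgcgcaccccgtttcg
Annotated starts directly preceded by TTNCAG, the form of a worm splice acceptor, were found for 272 of the 793 genes at shared peaks (34.3%, interval 31.1% to 37.7%). The share was 37.1% (33.5% to 40.9%) of the 660 genes that had a single-gene peak only and 18.99% (18.4% to 19.6%) of all 17242 autosomal coding genes. Of all 6232 genes whose window overlaps another, 18.6% (17.6% to 19.5%) had these letters.

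The next 5 sequences hold the motifs that the later comparison counts, each from the strongest peak on chromosomes II to V with the motif within 60 bp of the summit. They are the AP-1 element at chrIII:9956817-9956937, the cyclic-AMP response element (CRE) TGACGTCA at chrV:14012244-14012332, a GAGAGAGA repeat read on the minus strand at chrV:5049514-5049606, and the 9-base element CTGCGTCTC of worm promoters, at 2 places on the minus strand, at chrIII:13643670-13643790. The last, at chrIV:8432894-8433013, has CTGCGTCTC and the E-box CACGTG.
alx-1/mog-1: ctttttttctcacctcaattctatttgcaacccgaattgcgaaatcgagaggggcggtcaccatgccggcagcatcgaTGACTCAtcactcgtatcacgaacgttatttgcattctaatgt
aip-1/ddx-17: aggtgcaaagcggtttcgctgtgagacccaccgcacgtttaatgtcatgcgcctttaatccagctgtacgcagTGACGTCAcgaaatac
pqn-51/K11D12.14: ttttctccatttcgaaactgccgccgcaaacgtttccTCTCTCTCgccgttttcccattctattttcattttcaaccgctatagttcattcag
drr-2/set-16: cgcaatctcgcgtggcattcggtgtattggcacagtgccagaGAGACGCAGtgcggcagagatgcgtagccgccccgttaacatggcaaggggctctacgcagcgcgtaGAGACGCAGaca
T26A8.4/pdtf-1: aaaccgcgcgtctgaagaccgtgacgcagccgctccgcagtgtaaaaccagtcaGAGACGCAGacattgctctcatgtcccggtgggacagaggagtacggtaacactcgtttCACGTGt
In the alx-1/mog-1 sequence the AP-1 element lies to the right of the summit, which is base 61. The genes are alx-1, an ALIX-type protein of membrane sorting, and mog-1, an RNA helicase of splicing.

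Shared windows held a larger share of the peaks than of the sequence. They covered 2.21 Mb, 2.68% of the autosomes, and carried 21.0% of the autosomal peaks, or 176 peaks per Mb. Sequence in the window of 1 gene had 41.8 per Mb over 16.2 Mb, and sequence in no window 12.3 per Mb over 64.2 Mb. The ratio of shared to single windows was 4.21. It counts positions in 1 list made from both replicates, and the sequence of a shared window is by construction closer to 2 gene starts. Chromosome I held 94 of the shared-promoter peaks, II 60, III 92, IV 68 and V 75, which was between 17.1% (II) and 25.4% (I) of all peaks of the chromosome. Their median signal was highest on III, at 62.6 in the combined list, 38.7 in replicate 1 and 23.9 in replicate 2. It ran from 47.6 to 52.4 on the others in the combined list, in an order that differed between the replicates.

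Peaks at shared promoters had higher signals than peaks at the promoter of 1 gene in the combined list, while the replicate lists differed in how much. The signal is the authors' value for each peak, on a scale of its own in each list, and is used here to rank and describe peaks within a list. In the list thresholded by the irreproducible discovery rate (IDR, a measure of how well the ranks of a peak match between replicates), the median was 51.8 at shared promoters (quartiles 37.98 and 81.8, range 28.5 to 389), against 45.1 at single-gene promoters (quartiles 35.3 and 67.0). Replicate 1 had medians of 30.3 at shared and 26.4 at single-gene promoters, a difference of 3.84, and replicate 2 had 20.5 and 19.5, a difference of 0.954. The mean difference over the replicates was 2.40 ± 2.04 (SD, n = 2), a spread nearly as large as the difference itself. Each list has its own scale, so this spread mixes a difference of scale with variation between replicates. The quartile ranges of the sets overlapped in the combined list. Of the shared-promoter peaks 73 (18.8%) had a signal over 100, against 75 (11.1%) of the single-gene ones, and 24 (6.17%) were among the 100 strongest peaks of the list, against 27 (3.99%) of the single-gene ones and 4.34% of all peaks.

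Replicates found most of the shared-promoter peaks again, as they did most of all peaks. Both replicate lists, which are long and include background, had a peak overlapping 388 of the 389. The same held for 673 of 677 single-gene peaks and 2293 of all 2305. The exception at shared promoters was the group of mcm-7, a replicative helicase subunit, hpo-18 and figl-1. It had a signal of 32.6 in the combined list and 27.7 in replicate 1 and no overlapping peak in replicate 2. The 2305 strongest peaks of both replicates overlapped 308 of the shared-promoter peaks (79.2%, interval 74.9% to 82.9%) and 474 single-gene ones (70.0%, 66.5% to 73.3%), where 70.2% of all IDR-thresholded peaks met this condition. Both intervals lie apart, but the IDR list was itself made from these replicates, and its replicates had 1 control in common, whose share in the agreement was not tested. The median distance between the summits of the replicates was 18.5 bp at shared promoters and 23 bp at single-gene promoters. Replicate 1 had the higher value at 334 of the shared-promoter peaks, 548 of the 677 single-gene ones and 1838 of all 2305. The median ratio of replicate 1 to replicate 2 was 1.49, against 1.39 at single-gene promoters. Each list has its own scale, so a higher value in replicate 1 does not show stronger binding there. Across peaks, which share libraries and control, Spearman's rho between the replicates was 0.709 over 388 shared-promoter peaks and 0.619 over 673 single-gene ones.

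**Figure D1:**
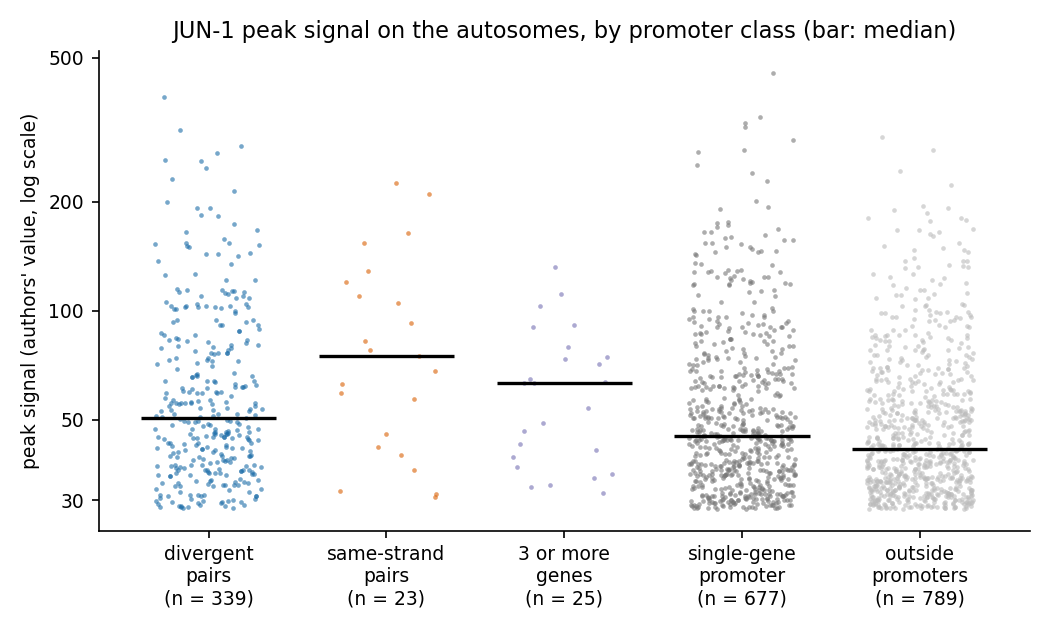
Signal of each autosomal peak in the IDR-thresholded list (log axis), by arrangement of the gene starts around its summit, with 1 point per peak and a bar at the median. Medians were 50.7 for divergent pairs, 74.9 for same-strand pairs and 63.1 for groups of 3 or more genes, against 45.1 for single-gene promoters and 41.4 outside promoters, and the ranges of all classes overlap.

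**Figure D2:**
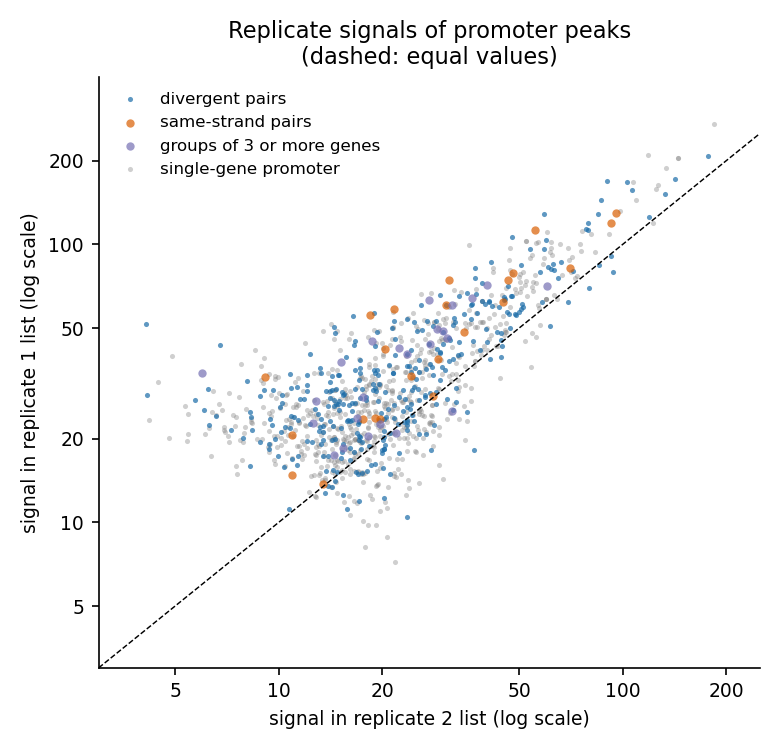
Signal in the replicate 1 list against that in the replicate 2 list (both log axes) for each peak at shared and at single-gene promoters that a peak of both lists overlaps, with the line of equal values dashed. Most points lie above the line, 334 of the shared-promoter ones among them, where 1838 of all 2305 peaks had the higher value in replicate 1. The divergent pair farthest above the line had 51.9 in replicate 1 and 4.10 in replicate 2.

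A few shared-promoter peaks differed strongly between the replicates. Y106G6H.16/ska-1 had 51.9 in replicate 1 and 4.10 in replicate 2, a ratio of 12.6, although its combined signal was 61.4. The peak of try-5, a serine protease gene, and K07B1.7 had 28.8 and 4.14, and that of hcp-6, a condensin subunit gene, and let-630 had 43.6 and 6.74. In the other direction, Y92H12BR.2/Y92H12BR.3 had 10.5 in replicate 1 and 23.6 in replicate 2 (ratio 0.444), and pbs-1, a proteasome subunit gene, with K08D12.3 had 18.2 and 37.0. The weakest shared peak, at copz-1, a coatomer subunit gene, and cyn-4, a cyclophilin gene, had a combined signal of 28.5, with 15.96 in replicate 1 and 8.27 in replicate 2.

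Of the 12 strongest shared peaks 6 had a gene named as a ribosomal protein or translation factor, against 49 of all 389 (12.6%). The count goes by gene name alone and leaves out drr-2, described below. The strongest, at chrIII:10759130-10759378, had a signal of 389 in the combined list, 208 in replicate 1 and 177 in replicate 2. Its summit was 54 bp from the start of tasp-1, the worm taspase, and 731 bp from that of K01G5.10. Second was the peak of tag-340 and nhl-2, a cofactor of microRNA silencing, at chrIII:4899826-4900029, with 315, 172 in replicate 1 and 142 in replicate 2. That summit was far from both starts, at 598 and 825 bp.

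The peak of iff-2, the worm eIF5A, and F54C9.14 at chrII:8561345-8561530 had 285, with 152 and 133 in replicates 1 and 2, and lay 62 bp from the iff-2 start. Ribosomal protein genes with divergent partners followed. Y17G9B.5/rpl-20 at chrIV:4749966-4750164 had 274 (168 in replicate 1 and 103 in replicate 2), rpl-15/K11H12.8 at chrIV:654832-655019 had 262 (157 and 106), and rpl-12/lin-54 at chrIV:13240594-13240777 had 260 (170 and 89.9). The partner lin-54 codes for the DNA-binding subunit of the DREAM complex, and its start was 350 bp from the summit, against 43 bp for rpl-12. The peak of rps-1 and ifet-1, an eIF4E-binding repressor of translation, at chrIII:4475582-4475736 had 232 (145 and 86.2), and the peak of rps-12 and ska-3, a gene of the spindle and kinetochore, had 215 (129 and 85.0).

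Other strong peaks joined genes with different roles. The peak of drr-2, an eIF4H-like translation factor, and set-16, a histone H3 lysine 4 methyltransferase of the MLL type, at chrIII:13643641-13643804 had 248, with 126 in replicate 1 and 119 in replicate 2, and lay almost midway, 160 and 186 bp from the starts. At chrIII:1619063-1619223, Y22D7AL.10 and hsp-60, the mitochondrial chaperonin, had 200 (119 and 79.4). Same-strand pairs gave the other places, egl-30/C53H9.4 with 225 and sec-61.G/F32D8.13 with 210. In all 12 the value was higher in replicate 1 than in replicate 2, as it was at 1838 of all 2305 peaks.

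At divergent pairs the summit usually lay between the starts and near to at least 1 of them, a position partly set by the windows. The starts were a median of 510 bp apart (range 12 to 1659), and the summit was a median of 152 bp from the nearer and 350 bp from the farther. It lay between the starts in 317 of 339 pairs (93.5%, interval 90.4% to 95.7%) and inside a gene in 22. Peaks were chosen by window, and a shared stretch reaches at most 200 bp past a start. In the 40 pairs with starts over 1000 bp apart it lies wholly between the starts, so their summits had to. The minus-strand gene was the nearer in 154 (45.4%, 40.2% to 50.7%), so neither strand was favoured beyond counting error. Of the 3 equal parts of the space between the starts, the middle one held 145 summits (42.8%, 37.6% to 48.1%). Within 250 bp of both starts there were 91 summits (26.8%) and within 500 bp of both 238 (70.2%). How much of the shared stretches lies in each of these zones was not computed, so the shares do not show a preferred position.

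**Figure D3:**
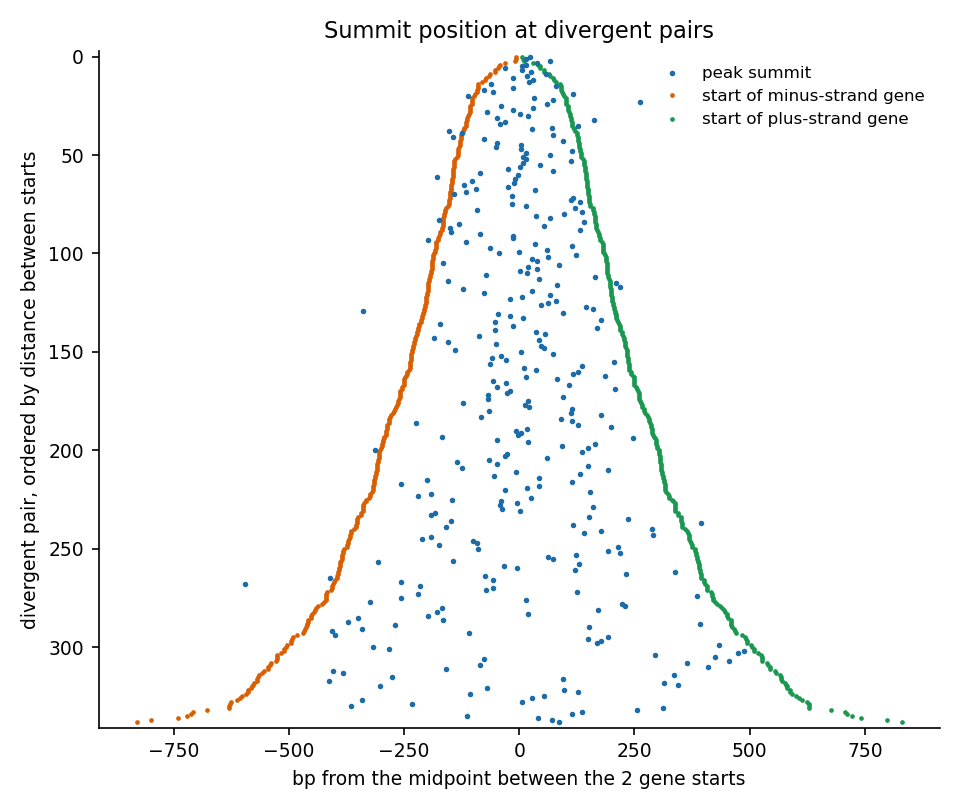
Positions at the 339 divergent pairs, 1 row per pair, ordered by the distance between the starts, in bp from the midpoint between them. Blue points are summits and the outer points are the gene starts, and 317 of the summits lie between the starts.

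Whether a divergent pair carried a peak varied with the distance between its starts. The autosomes have 2833 divergent pairs with overlapping windows, and 386 of them (13.6%, interval 12.4% to 14.9%) had a summit in the shared stretch. That number exceeds the 339 peaks above because a group of 3 or more genes holds several pairs. The share was 13.2% (10.1% to 17.1%) for starts up to 250 bp apart, 25.6% (22.0% to 29.5%) from 251 to 500 bp, 20.3% (16.9% to 24.2%) from 501 to 750 bp and 15.0% (11.6% to 19.1%) from 751 to 1000 bp. Beyond that, up to 2000 bp, it was 4.91% (3.79% to 6.34%). The length of the shared stretch changes with this distance by the way the windows are built. Per Mb of shared stretch the pairs with a peak numbered 236, 337, 201, 134 and 97.3 in the same order, so the 251 to 500 bp pairs were highest on this scale too. The signal changed less, with medians of 48.2, 53.7, 48.3, 48.8 and 50.4 in the combined list, 28.1, 34.2, 29.8, 27.6 and 29.5 in replicate 1 and 18.7, 20.7, 19.9, 23.5 and 19.8 in replicate 2.

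**Figure D4:**
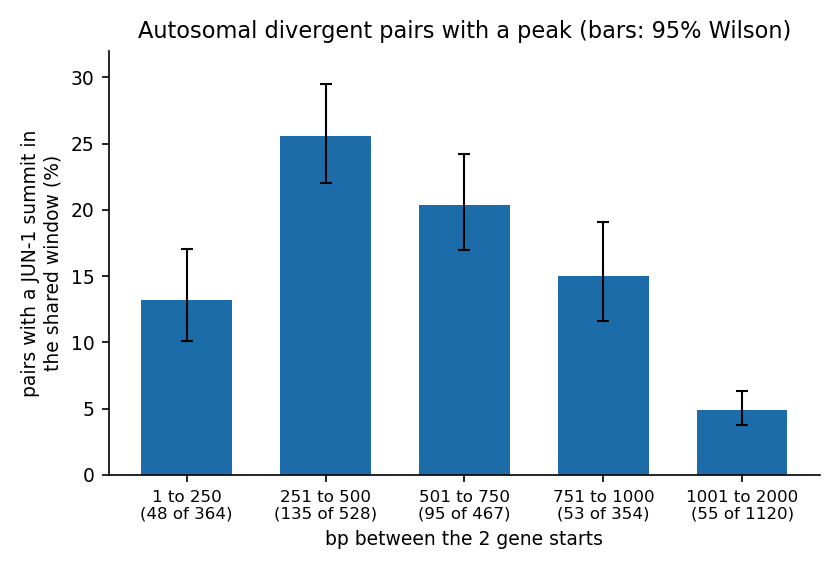
Percentage of autosomal divergent gene pairs with overlapping windows that had a JUN-1 summit in the shared stretch, by bp between the starts, with 95% Wilson intervals. The bar for 251 to 500 bp (135 of 528 pairs) is the highest, at 25.6%, and that for over 1000 bp (55 of 1120) the lowest, at 4.91%.

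A smaller share of same-strand pairs carried a peak, and at all 23 peaks of this kind the summit lay upstream of both genes. The windows admit a summit only a short way past the first start, so this position is partly set by the choice of peaks. Of 845 autosomal same-strand pairs with overlapping windows, 51 (6.04%, interval 4.62% to 7.85%) had a summit in the shared stretch, an interval below that of divergent pairs. Same-strand pairs also share shorter stretches, and per Mb of shared stretch the pairs with a peak numbered 197 for divergent and 156 for same-strand pairs, so the gap was smaller on that scale. In 14 of the 23 the second gene began at most 500 bp after the end of the first, an arrangement called operon-like here from position alone. The gap between the genes was a median of 106.5 bp (39 to 471), the first gene was 246 to 799 bp long, and the summit lay a median of 160.5 bp before the first start and 836.5 bp before the second. A first gene that short is what places both starts within 1000 bp of the summit, so longer operons are not in this set. Of all operon-like pairs 33 of 555 (5.95%) had a peak, against 18 of 290 (6.21%) of other same-strand pairs, which overlap over longer stretches. Per Mb of shared stretch the pairs with a peak numbered 193 and 112. These counts, too, include pairs within groups.

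Among operon-like pairs the strongest peak was that of sec-61.G, the gamma subunit of the protein translocation channel of the endoplasmic reticulum, and F32D8.13 at chrV:10897292-10897438. It had 210 in the combined list, 119 in replicate 1 and 92.1 in replicate 2, and the genes lie 114 bp apart. The peak of ddp-1, a mitochondrial import protein of the TIM8 type, and ttc-7 at chrIII:1859571-1859914 had 128 (78.6 and 47.9). Ribosomal protein genes led 2 others, rps-28/Y41D4B.4 with 120 (74.3 and 46.5) and rpl-29/thoc-7 with 82.5 (48.3 and 34.6), where thoc-7 codes for a subunit of the mRNA export complex THO. The peak of rpb-11, an RNA polymerase II subunit, and W01G7.4 had 105 (74.2 and 31.2). Weak ones were baf-1, a nuclear envelope protein gene, with tag-342 at 31.8 (14.8 and 10.9), and cebp-2, a bZIP factor of the C/EBP type, with lpd-2 at 30.6 (13.7 and 13.5).

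In the other 9 same-strand pairs the annotated genes overlapped and the starts were a median of 41 bp apart. The strongest was at egl-30, the alpha subunit of the Gq protein of neuronal signalling, and C53H9.4, at chrI:1835548-1835633, with 225 in the combined list, 130 in replicate 1 and 95.6 in replicate 2. Next were pqn-51/K11D12.14 at chrV:5049518-5049659 with 164 (112 and 55.7) and tub-2, a Tubby-type gene, with Y71G12A.5 at chrI:1873767-1874110 with 154 (82.0 and 70.3). The peak of F53E2.2 and unc-60, an actin depolymerizing factor gene, had 57.3 (28.4 and 28.1), and those 2 genes have the same annotated start. Where overlapping gene models share their 5′ region in this way, the summit cannot be assigned to one of them. The starts lay farther apart at rpl-23/swp-1 (602 bp) and at C27F2.9/vps-22 (551 bp). The rpl-23/swp-1 peak had 110 (62.0 and 45.0), with its summit 282 and 884 bp before the starts. The C27F2.9/vps-22 peak had 74.9 (55.8 and 18.4), with its summit 79 and 630 bp before them.

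Divergent pairs had a lower median signal than same-strand pairs in all lists. The medians were 50.7 and 74.9 in the combined list (difference -24.2). In replicate 1 they were 29.97 and 48.3 (-18.3), and in replicate 2 they were 20.2 and 28.1 (-7.82). The mean difference over the replicates was -13.1 ± 7.41 (SD, n = 2), a spread that also mixes the scales of the lists. The 23 same-strand signals ran from 30.6 to 225, inside the range of the divergent ones. With windows of 1500 bp upstream the difference was -1.70, and with windows of 500 bp upstream and 100 bp downstream it was -64.9. In those narrow windows 95.4% of 263 peaks were divergent, so the -64.9 rests on few same-strand pairs. Without replicate 1, when the strongest peaks of replicate 2 stood in for the IDR list, the difference was -7.23.

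Groups of 3 or more genes had a median of 63.1 in the combined list, 37.7 in replicate 1 and 22.1 in replicate 2. The outer starts were a median of 1039 bp apart and the nearest start was a median of 118 bp from the summit. At chrIII:13462933-13463276 the group of ant-1.1, the mitochondrial ADP/ATP carrier, T27E9.2 and abcf-2 had 132 (71.0 in replicate 1 and 60.3 in replicate 2). The group of W03C9.5, the late endosome GTPase gene rab-7 and the germline RNA-binding protein gene mex-1 had 112 (71.2 and 40.2), and that of cux-7, C07H6.2 and the DNA ligase gene lig-4 had 103 (63.9 and 36.4). Ribosomal protein genes on both sides, rps-14 and rpl-36, shared a peak of 91.3 (60.5 and 31.8) with ndab-2. The histone genes his-41 and his-35 with C50F4.6 had 63.4 (44.7 and 18.7), and his-68 and his-67 with alg-5 had 63.1 (42.3 and 22.3). The pairs with overlapping 5′ ends were Y54E10BR.2/rpb-7, with the start of an RNA polymerase II subunit, at 54.9 (38.6 and 14.3), and Y50D4A.4/wrb-1 at 29.3 (19.4 and 7.99).

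The 389 peaks covered 793 genes, 12.7% of the 6232 autosomal genes whose window overlaps another. Over 9 lists of housekeeping genes chosen by gene name (cytoplasmic and mitochondrial ribosomal proteins, translation factors, proteasome, chaperones, respiratory chain, splicing, ubiquitin pathway and membrane traffic), 119 of 309 genes with overlapping windows (38.5%) had a shared peak. Over 6 others (nuclear hormone receptors, chemoreceptors, cuticle collagens, F-box proteins, C-type lectins, and neuropeptides with insulin-like peptides), 22 of 616 (3.57%) did. This contrast is not particular to shared promoters, because genes with a single-gene peak only lean the same way. In the first 9 lists they ran from 2 of 41 splicing genes to 16 of 79 cytoplasmic ribosomal protein genes. In the 6 others they ran from 0 of 106 neuropeptide genes to 13 of 246 nuclear hormone receptor genes. The lists were chosen with earlier results of these data known, and no test was made of these shares. The 108 peaks with a gene of the first 9 lists had a median of 63.9 in the combined list, 38.4 in replicate 1 and 28.8 in replicate 2. The 281 peaks without one had 47.9, 28.8 and 19.5.

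Cytoplasmic ribosomal proteins led the lists. Of 79 autosomal genes 61 had an overlapping window, and 42 of these (68.9%) had a shared peak, in 39 peaks with a median signal of 79.0. Another 16 genes of the list had a single-gene peak only. In 18 of the 39 peaks a ribosomal gene was the one nearest the summit, so in the others the partner was nearer. The partners were varied. Beyond the pairs above, rps-19 shared a peak of 184 (128 in replicate 1 and 59.1 in replicate 2) with hsr-9, rps-20 one of 158 (96.0 and 59.0) with ekl-4, and rpl-22 one of 102 (65.1 and 33.5) with the securin gene ify-1. The lowest was rps-18 with sec-61.A at 28.8 (11.2 and 10.7).

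Other lists of protein synthesis and folding followed. Translation factors had 10 of 25 genes with overlapping windows (40.0%), led by iff-2, then eef-1A.1 with the replication factor gene rfc-4 at 154 (80.0 and 71.7), eef-2 with the claspin gene clsp-1 at 144 (80.6 and 63.1), and eef-1G with ctf-4 at 113 (64.99 and 47.4). Chaperones had 13 of 32 (40.6%). In 3 of those 13 the chaperone was the nearest gene, so hsp-60, cct-8 with Y55F3AR.2 (193, with 114 and 78.3) and cct-1 with mig-5, a Dishevelled gene of Wnt signalling (165, with 104 and 60.02), lay farther from the summit than their partners. An exception was dnj-13 with F54D5.9 (144, with 75.9 and 64.6). Splicing genes had 15 of 33 (45.5%), and rsp-1 and rsp-2, both of the SR protein family, diverged from 1 peak of 114 (59.5 and 51.3). The next were prp-40 with clu-1 (80.6) and prp-8, the core spliceosome protein gene, with bath-42 (74.1).

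Energy and degradation genes were at lower shares. The respiratory chain list had 9 of 24 (37.5%), led by the ATP synthase genes atp-1 with mcrs-1 at 152 (86.4 and 66.2) and atp-3 with F27C1.2 at 77.4 (45.9 and 31.3). Proteasome genes had 8 of 26 (30.8%), the gene nearest the summit in 7. The strongest was rpn-3, which diverges from the chaperone gene hsp-110, at 125 (82.5 and 37.3). Membrane traffic had 11 of 40 (27.5%), with sec-61.B, the beta subunit of the translocation channel, and trap-3, a protein associated with that channel, at 183 (91.0 and 92.2), and vps-32.1 with icd-1 at 135 (79.4 and 57.6). The ubiquitin pathway had 5 of 27 (18.5%), with ubc-6 and aka-1 strongest at 71.1 (40.8 and 29.4), and mitochondrial ribosomal proteins 6 of 41 (14.6%), with mrps-7 and Y57G11C.3 at 94.2 (48.5 and 43.0). The last list is close to the 12.7% of all such genes.

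Of 310 chemoreceptor genes with overlapping windows, 10 (3.23%) had a shared peak, and in 3 of those the receptor was the nearest gene. The strongest was sri-5 with the splicing cofactor gene rsr-1 at 76.4 (48.8 and 25.3). Histone genes, which often sit in divergent pairs, had 6 of 67 (8.96%). Nuclear hormone receptors had 3 of 46 (6.52%), with nhr-47 and dnj-19 at 105 (55.8 and 48.9). F-box genes had 3 of 111 (2.70%), with fbxb-85 and the hexosaminidase gene hex-3 at 142 (81.3 and 61.7) and fbxa-90 with efl-1, an E2F factor, at 88.1 (43.1 and 44.5). C-type lectins had 2 of 90 (2.22%), cuticle collagens 2 of 41 (4.88%) and neuropeptides 2 of 18 (11.1%), the last through the single pair nlp-31/nlp-34 at 34.1 (21.9 and 10.8). Of the bZIP factors, the family of JUN-1, 3 of 6 genes with overlapping windows shared a peak: zip-4 with the nucleolar protein gene nol-58 at 76.6 (53.2 and 21.7), zip-2 with ceeh-1 at 30.8 (21.1 and 10.2), and cebp-2.

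Most shared-promoter summits held none of the 6 motifs searched on both strands of the 200 bp around the summit. That was so for 275 of 389 (70.7%). One of the comparisons used windows centred 500 bp to either side of each summit. At 238 of the 339 divergent pairs both starts lay within 500 bp of the summit. Many windows beside the peaks therefore lie past a gene start and are not matched promoter sequence. The AP-1 element TGACTCA was at 9 (2.31%, interval 1.22% to 4.34%), against 5.61% (4.12% to 7.61%) of single-gene promoter peaks, with 4.9% of all IDR-thresholded peaks, 1.80% of windows 500 bp to either side and 2.46% of all autosomal promoters (the 200 bp before the start). The CRE TGACGTCA was at 6 (1.54%), against 1.62% of single-gene ones, 1.52% of all peaks, 0.643% beside the peaks and 1.00% of all promoters. Either element was at 14 (3.60%). Divergent pairs without a peak had TGACTCA at 1.35% and TGACGTCA at 1.02%. The intervals of each element at shared-promoter peaks overlap those of the windows beside the peaks and of these pairs. At this number of peaks the shares do not show an excess of either element, and none was tested.

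Of the peaks with TGACTCA the strongest was alx-1/mog-1 with 98.6 (61.2 in replicate 1 and 39.7 in replicate 2), followed by sac-2/rpl-31 with 93.2 (60.6 and 30.7), C06B3.7/C06B3.6 with 64.1 (35.3 and 30.4), rib-2, a heparan sulfate polymerase gene, with the beta-tubulin gene tbb-1 at 62.5 (47.8 and 14.6), and Y106G6H.16/ska-1. With TGACGTCA they were R12E2.13/suco-1 at 66.0 (36.1 and 27.9), aip-1, an arsenite-inducible gene, with ddx-17 at 51.9 (22.3 and 28.3), and sri-39/F33H12.7 at 46.0 (29.3 and 15.2). None of these was among the 12 strongest peaks.

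Repeats of GA and the element CTGCGTCTC were more frequent at the summits than beside them. GAGAGAGA was at 24 shared-promoter peaks (6.17%, 4.18% to 9.02%), 10.6% (8.53% to 13.2%) of single-gene ones, 13.4% of all peaks, 1.16% of the windows beside and 1.23% of 2447 divergent pairs without a peak. CTGCGTCTC was at 39 (10.03%, 7.42% to 13.4%), 16.4% (13.8% to 19.4%) of single-gene ones, 15.3% of all peaks, 0.900% of the windows beside and 1.06% of pairs without a peak. It was present at 6 of the 23 same-strand peaks. All autosomal promoters held these motifs at 2.76% and 2.51%. The pair of them was together at 4 peaks and at least 1 was at 59 (15.2%). Both intervals at shared promoters lie above those of the windows beside them, and both shares were lower than at single-gene promoters, with intervals that overlap slightly for GAGAGAGA and for the AP-1 element and do not for CTGCGTCTC.

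The E-box CACGTG was at 15 shared-promoter peaks (3.86%, 2.35% to 6.26%), 6.79% of single-gene ones, 7.9% of all peaks, 4.24% of the windows beside and 4.36% of all promoters. The peaks with it had a median signal of 91.4 (50.8 in replicate 1 and 37.2 in replicate 2), against 50.8 (30.1 and 20.2) without. The GATA element TGATAA was less frequent at shared-promoter peaks than in each set it was compared with. It was at 39 (10.03%, 7.42% to 13.4%), against 19.9% (17.1% to 23.1%) of single-gene peaks, 20.3% of all peaks, 17.9% (15.3% to 20.7%) of the windows beside and 19.6% of divergent pairs without a peak. Median GC content was 41% at shared-promoter peaks, 41.5% at single-gene ones and 43.5% at all peaks. Whether GC content bears on the motif shares was not tested. A match to letters is not evidence of binding, and the absence of one is not evidence against it.

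**Figure D5:**
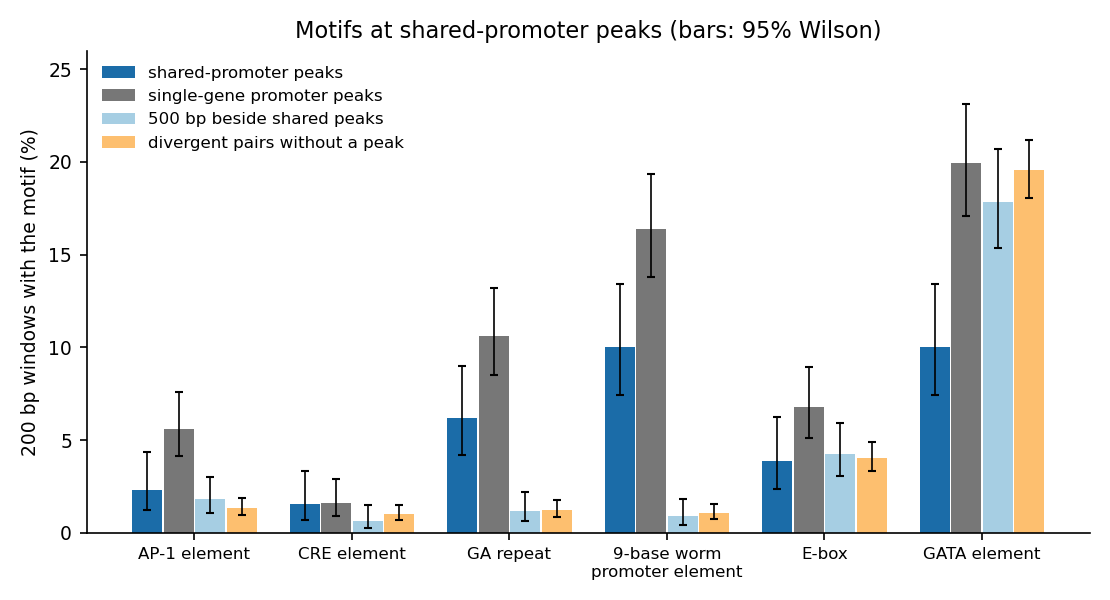
Percentage of 200 bp windows with each motif on either strand, for shared-promoter peaks, single-gene promoter peaks, windows 500 bp beside the shared-promoter peaks and divergent pairs without a peak, with 95% Wilson intervals. The GA repeat (6.17%) and the 9-base element (10.03%) stand above both backgrounds at shared-promoter peaks, and the GATA element (10.03%) stands below them.

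Membership depends on an edge. The farthest second starts inside it were those of mif-3, 1000 bp from the summit shared with F13G3.10, of srh-282, 999 bp from that of sma-10, a membrane protein of the BMP pathway, and of ehbp-1, 998 bp from that of nstp-10. A further start in the group of F10E9.5, F10E9.7 and F10E9.4 also lay 1000 bp from its summit. Just outside were the peaks of C18D11.3, where maa-1 began 1007 bp away (signal 46.0, with 21.0 in replicate 1 and 21.4 in replicate 2), of mys-1 with VC5.2 at 1011 bp (30.4, with 22.1 and 7.46), and of F15D3.6 with timm-23 at 1016 bp (31.5, with 19.6 and 15.7).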

How the data were processed

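JUN-1 ChIP-seq peaks of whole L1 larvae were taken from lists deposited on ce11, the assembly also called WBcel235. Per the deposited notes on file provenance, the authors called 1 list per replicate (28101 and 30000 peaks, background included) and 1 on both together (19646), against 1 control alignment, and derived from them the IDR-thresholded list of 2305 peaks. The 2305 rows carry the same signal as in the list called on both. The sources used here do not name the aligner or the peak caller, nor the IDR cutoff or how the signal was scaled. The deposited lists give a signal, a −log10 q-value (3.73 at all IDR-thresholded peaks, so not used for ranking) and a summit offset per peak. They hold no read counts. The depth is therefore unknown, and single peaks have no counting error.

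Genes came from Ensembl release 115 (19973 coding genes, 17242 on autosomes) and sequence from RefSeq. A replicate's value is that of its strongest peak overlapping by at least 1 bp. A pair of peaks of 1 gene pair can therefore share a replicate value. Scripts used Python 3.11.15, pandas 2.3.3 and scipy 1.17.1 and were tested on simulated data. Set comparisons are descriptions without tests. The alternatives tried were narrower and wider windows, transcript starts, midpoints, the 1152 strongest peaks, motif windows, stricter overlap and single replicates. Named genes are the strongest of all, of each arrangement, motif and gene list, and the extremes of the replicate ratio and window edge. The members and lists were chosen with earlier results of these data known. The chemoreceptor name pattern was corrected after seeing that it also took genes of other families.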

Additional observations from a re-analysis of the deposited data

How the results depend on the processing

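The 12 main values were recomputed under 71 alternatives in all, of which 55 counted as unchanged. For most values that meant staying within the interval or replicate spread of the value reported. The number of shared-promoter peaks has neither and had to stay within 1.5 times that number. The replicate spread of the signal differences was on the scales of the replicate lists, not that of the combined list. No difference reversed its sign. Window size moved the arrangement most. With 500 bp upstream and 100 bp downstream there were 263 shared-promoter peaks, 95.4% of them divergent, with a density ratio of 5.55 and a divergent minus same-strand difference of -64.9. With 1500 bp upstream there were 492, 72.2% divergent, and that difference was -1.70. Among the 1152 strongest peaks there were 241, with a density ratio of 5.14 and 97.5% among the strongest peaks of both replicates. Leaving out a replicate, with the strongest peaks of the other in place of the IDR list, gave 366 and 412 peaks, shared minus single-gene differences of 1.495 to 3.03 and divergent minus same-strand differences of -26.7 to -7.23, each on the scale of the list left. Motif shares followed the length searched. In 100 bp CACGTG was at 2.06%, GAGAGAGA at 4.11% and TGATAA at 3.86%, and in 400 bp CACGTG was at 6.94% and TGATAA at 28.8%.

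The share found in both replicates needs both lists and has no value without one of them. No paired analysis was possible because the replicates form 1 group and share no second condition. The main limits are a single group, an unknown depth, a control shared by both replicates and assignment by position, with no expression measured.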

Other observations

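Small RNA genes began near some of the shared-promoter peaks as well. Windows of snoRNA, tRNA, miRNA or snRNA genes held the summit of 25 (6.43%). The share was 8.12% of single-gene promoter peaks, 13.9% of peaks outside coding promoters and 11.3% of all 2305 peaks. All 25 were at divergent pairs, which make up 87.1% of the shared-promoter peaks. Of the 25, 19 (4.88% of the 389) were at snoRNA genes, which guide the modification of ribosomal RNA. The share at snoRNA genes was not computed for the other sets of peaks, so this count shows no preference for them. Named after their values were seen, the strongest were iff-2/F54C9.14 with the snoRNA gene F54C9.12 (285, with 152 in replicate 1 and 133 in replicate 2), rpl-15/K11H12.8 with K11H12.12 and K11H12.13 (262, with 157 and 106) and ska-3/rps-12 with F54E7.10 and F54E7.11 (215, with 129 and 85.0). Ribosomal protein genes were a partner in most of the snoRNA cases, among them rpl-7A, rps-23, rps-26, rps-29, rpl-4, rps-13 and rpl-26. How often annotated snoRNA genes begin near ribosomal protein genes was not counted.

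The same 2 genes had 2 peaks between them in 5 cases, also named after their values were seen. For icd-1 and vps-32.1 the signals were 135 (79.4 and 57.6 in replicates 1 and 2) and 44.3 (23.3 and 16.3), and for ecps-1 and atx-2 81.5 (54.0 and 23.5) and 60.9 (24.9 and 35.2), so the order of the ecps-1/atx-2 peaks differed between the replicates. For tag-77 and mes-6, a Polycomb gene, they were 36.9 (23.1 and 14.1) and 32.3 (17.3 and 13.4). At C55A6.1/C55A6.10 and at Y95B8A.6/pde-6 both peaks were overlapped by 1 peak in each replicate list, so the replicates do not separate them.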
